A study of Mus musculus with 2 samples.

Results

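The regions described here were the TET2 peaks at CpG-poor promoters of protein-coding genes. They were chosen by their place and by the sequence of the promoter, not by peak height. An autosomal peak was taken when its midpoint lay within 1 kb of a protein-coding transcription start site (TSS), when the nearest such TSS had a CpG observed/expected ratio under 0.5 in the 500 bp on each side, and when no coding gene on the opposite strand started within that 1 kb as well. Of 14103 deposited peaks, 13828 were autosomal and 4704 of these lay within 1 kb of a coding TSS. A further 412 were left out because coding genes on opposite strands were that close. Of the 4292 peaks that remained, 593 were at CpG-poor promoters, of 584 genes, and 3699 were at CpG-rich promoters, of 3622 genes.

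TET2 was measured by ChIP-seq, in which DNA bound by a protein is collected with an antibody and sequenced, in adipocytes that had been differentiated in culture. The stromal vascular fraction of mouse inguinal white fat was grown in medium with 10% FBS and 10 ng/mL β-FGF, and the adherent stem cells were used at passage 3. Confluent cells were induced with 0.5 mM IBMX, 1 µM dexamethasone and 10 µg/mL insulin per the labels, and were then kept on 10 µg/mL insulin given every 48 h. The study's methods give another insulin dose for the induction. There was 1 TET2 ChIP library and 1 Input library (chromatin sequenced without the antibody), both from such cells, so no value here has a replicate error. The intervals given are exact 95% binomial intervals for shares and order-statistic 95% intervals for medians, and they cover counting error only. The strain, genotype and age of the mice and the share of cells that became adipocytes are not given in the sources used here. The deposited peak list holds no read totals. The published peak table gives a pileup of reads for a peak, but the depth behind the peaks was not analysed here.

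TET2 is a dioxygenase that oxidises 5-methylcytosine to 5-hydroxymethylcytosine, mainly where a cytosine is followed by a guanine (CpG). It lacks the CXXC zinc finger by which TET1 and TET3 can bind DNA rich in unmethylated CpG, and it is often brought to DNA by transcription factors. Most mammalian promoters are CpG islands, which hold near the number of CpGs that their base composition gives and are usually unmethylated. CpG-poor promoters have lost most of their CpGs, are often methylated where their gene is silent, and include many genes that are used in only 1 tissue, among them the fat cell hormones leptin and adiponectin. The CpG observed/expected ratio compares the CpGs counted in a stretch of DNA with the number that its C and G content would give by chance order.

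The sequences below show what such promoters look like in fat cell genes. Each is the 150 bp just upstream of a TSS on the strand of the gene (GRCm38, Ensembl gene models of GENCODE M21), with every CpG in capitals. The first 3 lie at a TET2 peak, at Lep (leptin, the satiety hormone of fat cells, chr6:29060070-29060219, + strand), Plin4 (a lipid droplet coat protein, chr17:56109804-56109953, − strand) and Ucp1 (the uncoupling protein of thermogenic fat cells, chr8:83290202-83290351, + strand). The last is a promoter of the same kind with no TET2 peak, that of Adipoq (adiponectin, chr16:23146386-23146535, + strand).
Lep: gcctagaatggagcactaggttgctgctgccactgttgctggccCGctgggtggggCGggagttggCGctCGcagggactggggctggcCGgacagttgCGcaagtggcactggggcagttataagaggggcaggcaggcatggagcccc
Plin4: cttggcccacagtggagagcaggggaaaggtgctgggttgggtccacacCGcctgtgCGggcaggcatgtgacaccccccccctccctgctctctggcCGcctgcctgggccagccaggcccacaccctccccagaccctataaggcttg
Ucp1: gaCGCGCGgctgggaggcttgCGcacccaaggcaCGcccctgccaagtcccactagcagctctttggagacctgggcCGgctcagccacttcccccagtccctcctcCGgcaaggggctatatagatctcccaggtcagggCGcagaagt
Adipoq: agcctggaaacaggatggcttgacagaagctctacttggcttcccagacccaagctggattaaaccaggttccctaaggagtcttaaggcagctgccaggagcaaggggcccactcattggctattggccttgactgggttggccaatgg
The runs of Lep, Plin4 and Ucp1 held 6, 3 and 8 CpGs and had a GC content of 66.7%, 68.7% and 66.0%. The run of Adipoq held 0 CpGs, with a GC content of 54.7%. The run of Lep contains the C/EBP letters TTGCNNAA, read as ttgCGcaa with its first base 54 bp upstream of the TSS, and the SP1 letters GGGCGG with the first base 97 bp upstream. The runs of Plin4, Ucp1 and Adipoq contain neither on either strand.

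TET2 peaks were much less frequent at CpG-poor than at CpG-rich coding genes. Of 8161 genes whose coding TSSs were all CpG-poor, 400 had a TET2 peak at a promoter, or 4.90% (4.44% to 5.39%). Of 6465 genes whose coding TSSs were all CpG-rich, 2238 had one, or 34.6% (33.5% to 35.8%). The share was 21.7% over all 19159 coding genes that could be placed. The CpG-rich share was 7.06 times the CpG-poor share (95% interval 6.38 to 7.82 from the log ratio). Genes with TSSs of both kinds had a peak in 33.5% of 4533 cases (32.1% to 34.9%). Of the 584 genes with a peak at a CpG-poor promoter, 400 (68.5%) were CpG-poor at every coding TSS and 184 (31.5%) had a CpG-rich coding TSS elsewhere.

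Within the CpG-poor genes the share with a peak was higher the higher the GC content of the promoter, here the GC content of the 500 bp on each side of the TSS averaged over the TSSs of a gene. It was 0.557% (0.336% to 0.868%) of 3412 genes under 45% GC, 3.13% (2.39% to 4.03%) of 1852 genes at 45 to 50% and 7.09% (5.97% to 8.34%) of 1877 genes at 50 to 55%. It reached 18.6% (16.1% to 21.3%) of 913 genes at 55 to 60%, and at 60% or more it was 18.7% (11.8% to 27.4%) of 107 genes, so the last bands did not differ beyond their intervals. CpG-rich genes of 55 to 60% GC had a peak in 33.3% of 1784 cases (31.1% to 35.5%), so at like GC content the CpG-rich share was still above the CpG-poor share. The share was also higher at higher CpG ratios, from 1.08% (0.608% to 1.78%) of 1384 genes under 0.1 to 17.5% (14.9% to 20.4%) of 776 genes at 0.4 to 0.5. The genes with the higher ratio also had the higher GC content, with a median of 53.3% against 41.2%. In genes of 55 to 60% GC the share was 13.9% (9.81% to 18.8%) of 245 genes at a ratio of 0.2 to 0.3, 21.5% (16.4% to 27.3%) of 233 genes at 0.3 to 0.4 and 28.3% (22.8% to 34.3%) of 251 genes at 0.4 to 0.5. The intervals of the lowest and the highest of these 3 groups do not overlap. GC content can also alter how readily fragments are amplified and sequenced, and its part in these shares was not tested.

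**Figure D1:**
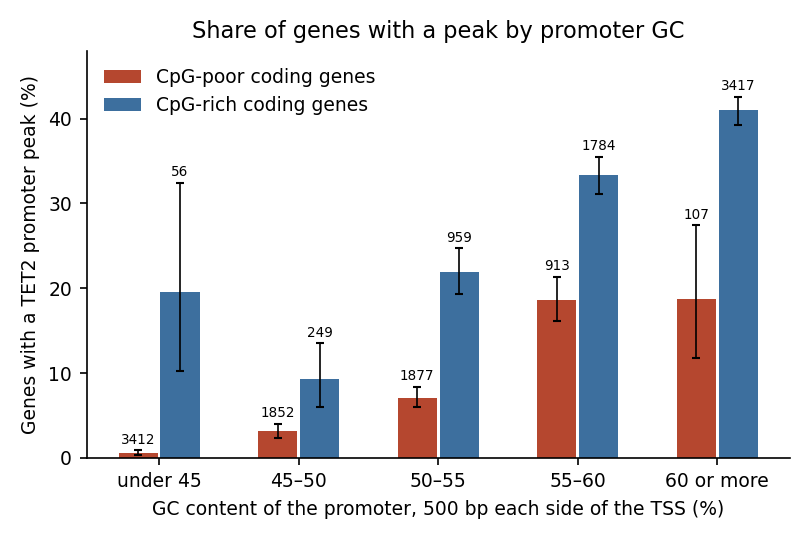
Share of coding genes with a TET2 promoter peak (%) by GC content of the promoter (%), for genes that are CpG-poor or CpG-rich at every coding TSS. Bars give the share, error bars the exact 95% binomial interval and the printed numbers count the genes. CpG-poor genes go from 0.557% under 45% GC to 18.6% at 55 to 60%, below CpG-rich genes in every band up to 60% or more, where they reach 18.7% against 41%.

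The peaks at CpG-poor promoters had the same median height as those at CpG-rich promoters. Height means the deposited −log10 p of a peak, from MACS2. The list holds 2182 of 14103 peaks under 5, which the p cut-off stated for peak calling would have left out, and 61 of the 593 are among them. It ran from 3.07 to 33.3 with a median of 6.90 (6.70 to 7.16) over the 593 peaks, against a median of 6.90 (6.80 to 6.98) over the 3699 CpG-rich peaks and 6.21 over all deposited peaks. The quartiles were 5.91 and 8.46 at CpG-poor promoters and 5.74 and 8.46 at CpG-rich promoters. A height of at least 10 was reached by 69 peaks, or 11.6% (9.17% to 14.5%), against 11.2% (10.2% to 12.2%). A height of at least 15 was reached by 1.35% (0.584% to 2.64%) against 0.676% (0.438% to 0.996%), and these intervals overlap. The highest CpG-rich peak, at Gm10800, had a −log10 p of 335 and a GC content of 36.2%, far from the median of its group. The CpG-poor peaks were slightly shorter, with a median of 444 bp (436 to 454) against 478 bp (472 to 485).

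**Figure D2:**
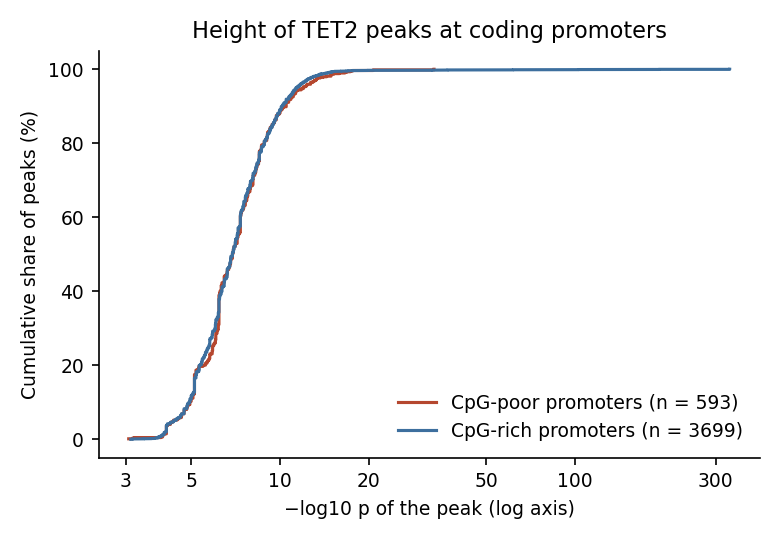
Cumulative share of TET2 peaks (%) by −log10 p (log axis) for 593 peaks at CpG-poor and 3699 peaks at CpG-rich coding promoters. The curves nearly coincide over most of the range, both with a median of 6.90, and the CpG-rich curve runs on to 335.

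Peaks lay mostly just downstream of the TSS. The median midpoint was 163 bp downstream (124 to 198), and 72.7% of midpoints (68.9% to 76.2%) were at or downstream of the TSS. At CpG-rich promoters the median was 137 bp (127 to 146), and 75.5% (74.1% to 76.9%) were at or downstream of it. The CpG-poor peaks were spread more widely. Of their midpoints 43.3% (39.3% to 47.4%) were within 200 bp of the TSS, against 54.2% (52.6% to 55.8%), and 25.8% (22.3% to 29.5%) were over 500 bp away, against 11.5% (10.5% to 12.6%). Most of the distant midpoints were downstream, 116 of 153. The rule sets the CpG ratio from the 500 bp on each side of the TSS, so peaks beyond 500 bp were centred outside the stretch that chose them.

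**Figure D3:**
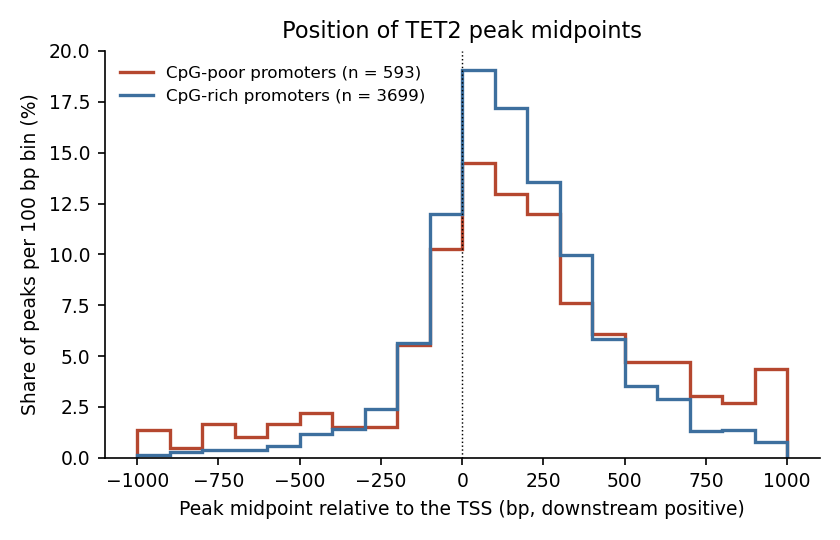
Share of TET2 peak midpoints (%) in 100 bp bins of distance from the nearest coding TSS (bp, downstream positive) for peaks at CpG-poor and CpG-rich promoters. Both are highest just downstream of the TSS, and the CpG-poor peaks have more of their midpoints over 500 bp away, 25.8% against 11.5%.

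The DNA under the peaks was richer in G and C than the promoter around it. The median GC content of a peak was 61.5% (61.2% to 61.8%), with quartiles of 59.1% and 63.8%, and it was above that of its own promoter window in 555 of 593 cases (93.6%). The median of the promoter windows was 55.7%. At CpG-rich promoters the GC content of the peak was above that of its promoter window in 82.8% of cases (81.6% to 84.0%). Coding promoters of CpG-poor genes with no peak midpoint within 3 kb of the TSS gave a comparison. In 7542 of them, 445 bp windows placed at the distances from the TSS that the peaks have showed a median GC content of 46.3%, with quartiles of 40.4% and 52.4%. A GC content of at least 55% was found in 89.9% of the peaks (87.2% to 92.2%) and in 15.3% of these windows. Mean GC content was 63.3% in the 200 bp at the peak midpoint, and fell to 47.9% at 1 kb to the upstream side and 49.2% at 1 kb to the downstream side. In the same bins it was 69.2% at the midpoint of CpG-rich promoter peaks and 46.5% at the matching position of promoters with no peak.

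CpG content peaked at the same point, although most of these peaks were not CpG islands. The median CpG observed/expected ratio of the peaks was 0.455 (0.439 to 0.473), above that of the promoter in 83.0% of cases (79.7% to 85.9%), and well under the 0.822 of CpG-rich promoter peaks. At CpG-rich promoters the ratio of the peak was above that of the promoter in 70.3% of cases (68.8% to 71.8%). The windows at promoters with no peak had a median ratio of 0.181. A peak held a median of 19 CpGs, or 4.11 per 100 bp, against 45 CpGs and 9.19 per 100 bp in CpG-rich peaks, and 7 of the 593 peaks held 0 CpGs. A ratio of at least 0.6, the usual limit for a CpG island, was reached by 110 peaks, or 18.5% (15.5% to 21.9%), against 1.33% of the windows with no peak. This share was 12.8% (9.01% to 17.6%) for midpoints within 200 bp of the TSS, 14.2% (9.50% to 20.1%) from there to 500 bp and 33.3% (25.9% to 41.4%) beyond 500 bp. CpG-dense DNA was thus more frequent under the peaks whose centre the choice of promoters had not constrained. Another TSS, of any transcript or gene, with a ratio of at least 0.6 lay within 1 kb of the peak midpoint in 3.88% of cases (2.47% to 5.76%).

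**Figure D4:**
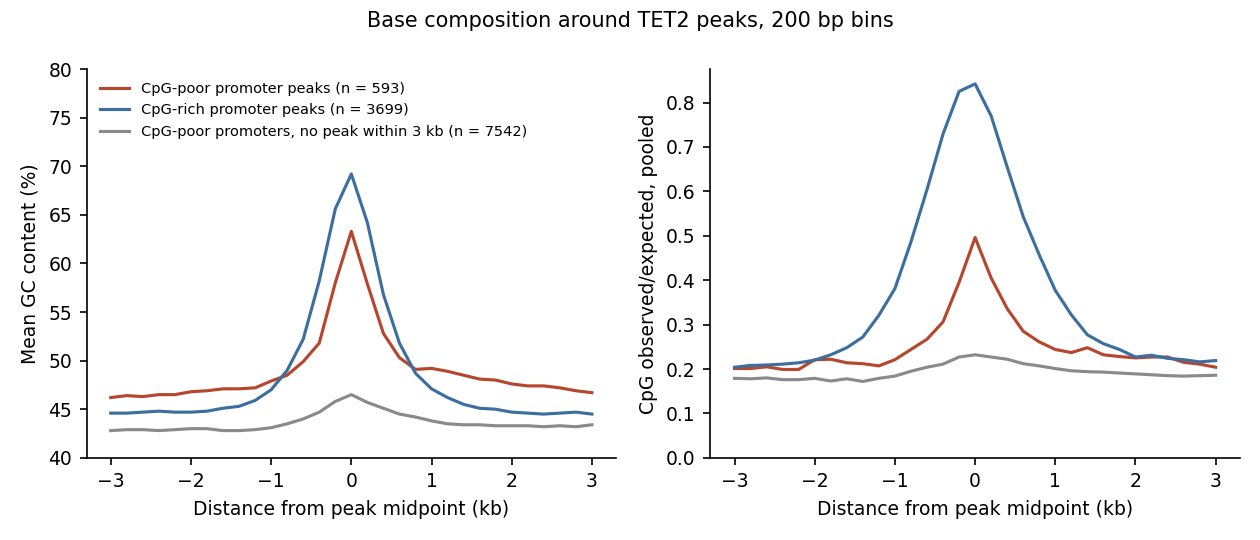
Mean GC content (%, left) and pooled CpG observed/expected ratio (right) in 200 bp bins by distance from the peak midpoint (kb), for peaks at CpG-poor and CpG-rich coding promoters and for CpG-poor promoters with no peak within 3 kb, read at the same distances from the TSS. The CpG-poor peaks reach 63.3% GC and a ratio of 0.496 at the midpoint, between the CpG-rich peaks at 69.2% and 0.842 and the peak-free promoters at 46.5% and 0.232.

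Coding sequence was the most frequent place of the midpoint. It held 272 of 593 midpoints, or 45.9% (41.8% to 49.98%), against 23.0% (21.7% to 24.4%) of CpG-rich peaks and 19.5% of the matching windows at promoters with no peak. The 5′ UTR held 21.4% (18.2% to 24.9%), introns 20.4% (17.2% to 23.9%), the 3′ UTR 1.18% (0.476% to 2.42%), and 11.1% (8.71% to 13.9%) lay outside coding transcripts. For introns the order was the other way, with 32.8% of CpG-rich midpoints and 41.8% of the windows with no peak. Coding exons are GC-rich, so the shares were also read within bands of GC content. At 55 to 60% GC the coding share was 54.3% (45.3% to 63.1%) of 129 peaks against 24.5% of windows with no peak, and at 60 to 65% it was 47.2% (41.5% to 53.0%) of 305 peaks against 31.0%. The coding share thus stayed above that of promoters with no peak at like GC content. Among the 69 peaks with a −log10 p of at least 10, 39 had their midpoint in coding sequence.

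CpG-poor genes whose transcript is a single exon carried a peak more often than those of several exons. The nearest coding transcript had 1 exon for 74 peaks, or 12.5% (9.93% to 15.4%), and 83.8% of these (73.4% to 91.3%) had their midpoint in coding sequence, against 40.5% (36.2% to 44.8%) for transcripts of several exons. CpG-poor genes of 1 exon had a peak in 61 of 767 cases, or 7.95% (6.14% to 10.1%), against 4.58% (4.12% to 5.09%) of 7394 genes of several exons. Without olfactory and vomeronasal receptors the shares were 10.4% (8.04% to 13.1%) of 587 genes of 1 exon and 5.29% (4.74% to 5.87%) of 6242 genes of several exons. Genes named Krtap supplied 16 of the 61 peaks, and with them left out too the shares were 8.41% (6.20% to 11.1%) of 535 and 5.27% (4.73% to 5.86%) of 6237. Genes of 1 exon that lie among the Krtap genes of chromosome 11 under other names, such as 2300003K06Rik and Gm11564, were not left out. The shares by exon number were not read within bands of promoter GC content, so the part of GC content in them was not tested.

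Stretches of 150 bp inside such peaks, all of them coding sequence, are shown to set the dense and the sparse case side by side, again with CpGs in capitals and on the strand of the gene. Slc27a2 (chr2:126553248-126553397, + strand) encodes an acyl-CoA synthetase and transporter of very long chain fatty acids. S1pr4 (chr10:81499167-81499316, − strand) and Ffar1 (chr7:30861117-30861266, − strand) encode receptors for sphingosine-1-phosphate and for free fatty acids, each in 1 exon. Pspn (chr17:56999592-56999741, − strand) encodes persephin, a neurotrophic factor of the GDNF family, and Krtap9-3 (chr11:99597745-99597894, − strand) a keratin-associated protein of the hair shaft. Ffar1 and S1pr4, of ranks 17 and 20 by height, were added to those named by rule, as receptors of 1 exon, after their values had been seen.
Slc27a2: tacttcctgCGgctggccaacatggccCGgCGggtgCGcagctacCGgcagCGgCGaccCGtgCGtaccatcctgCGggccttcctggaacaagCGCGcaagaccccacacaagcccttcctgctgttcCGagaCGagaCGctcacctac
S1pr4: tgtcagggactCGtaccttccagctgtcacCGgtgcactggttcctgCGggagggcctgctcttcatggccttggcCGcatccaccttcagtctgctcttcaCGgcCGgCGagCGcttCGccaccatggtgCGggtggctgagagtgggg
Ffar1: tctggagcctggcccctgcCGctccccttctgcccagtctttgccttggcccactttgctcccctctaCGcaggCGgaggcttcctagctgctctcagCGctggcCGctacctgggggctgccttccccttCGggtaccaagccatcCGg
Pspn: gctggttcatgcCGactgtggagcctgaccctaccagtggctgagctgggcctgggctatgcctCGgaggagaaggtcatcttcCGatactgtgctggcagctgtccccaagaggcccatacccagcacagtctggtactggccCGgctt
Krtap9-3: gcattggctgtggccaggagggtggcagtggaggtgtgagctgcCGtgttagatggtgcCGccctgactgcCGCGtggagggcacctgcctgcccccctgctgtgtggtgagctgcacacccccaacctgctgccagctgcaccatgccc
These runs had a GC content of 66.7%, 65.3%, 67.3%, 62.0% and 68.0%, and held 15, 10, 7, 4 and 4 CpGs, in that order. The run of Krtap9-3 was as GC-rich as that of Slc27a2 with far fewer CpGs.

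The highest of the peaks was at Slc27a2, with a −log10 p of 33.3. Its midpoint lay 916 bp downstream of the TSS in coding sequence, in a peak with a CpG ratio of 0.742 and 68.4% GC, while the promoter window had a ratio of 0.494 and 46.8% GC. A CpG-dense TSS of another transcript lay within 1 kb of the peak midpoint. The next was at Slc7a13, an amino acid transporter of the kidney, with 20.7, followed by Ugt1a7c, a UDP-glucuronosyltransferase, with 17.6. Both had a low GC content, 46.1% and 48.0%, the lowest of the 10 highest peaks, with CpG ratios of 0.355 and 0.310. Gm47791 had a −log10 p of 17.3 and Krtap9-3 one of 16.8. Slc22a12, the urate transporter of the kidney, had 16.6, Pspn 15.9 and Slc22a6, an organic anion transporter of the kidney, 15.2. Sgcz, which encodes a sarcoglycan, and 2300003K06Rik both had 14.9. The peak of Sgcz lay in an intron 950 bp downstream, with a ratio of 0.857, and was the only one of these 10 whose midpoint was outside coding sequence. Among peaks found at 1 place in the genome and under 50% repeat-masked, Gm20721 with 14.9 and 47.6% GC and Gprc5b, an orphan receptor, with 13.7 took the places of Krtap9-3 and 2300003K06Rik in the first 10. The peak of Gprc5b lay wholly in coding sequence, and the gene has another TSS with a ratio of 0.758.

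**Figure D5:**
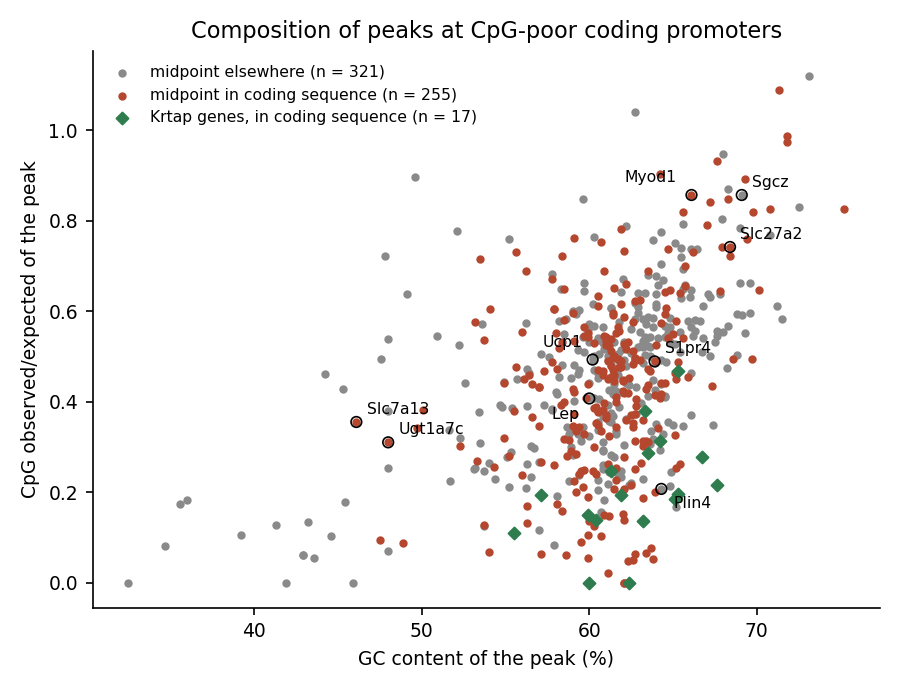
GC content (%) against CpG observed/expected ratio of the 593 peaks at CpG-poor coding promoters, 1 point per peak, coloured by whether the midpoint lies in coding sequence. The quartiles are 59.1% and 63.8% for GC content and 0.312 and 0.564 for the ratio. Slc27a2, Sgcz and Myod1 lie above 0.7, the 17 Krtap peaks lie below 0.5, and Slc7a13 and Ugt1a7c lie below 50% GC.

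Fat cell genes with a CpG-poor promoter mostly had no TET2 peak there. Of 40 genes that mark adipocytes, 21 were CpG-poor at every coding TSS, and 3 of these had a peak, or 14.3% (3.05% to 36.3%), beside 4.90% of all CpG-poor coding genes, which lies inside that interval. The peak at Lep was the highest of the 3, with a −log10 p of 11.2 and rank 40 of 593. It was 683 bp long (chr6:29059811-29060493), was centred 68 bp upstream of the TSS and held 25 CpGs, with a ratio of 0.407 and 60.03% GC. The peak at Plin4 had a −log10 p of 6.47, was centred 11 bp upstream and held 8 CpGs in 375 bp. That at Ucp1 had 5.07, was centred 195 bp upstream and held 21 CpGs in 470 bp. All 3 were centred upstream, where 27.3% of the 593 midpoints lay. The 18 without a peak include Adipoq, the lipid droplet genes Plin1 and Cidec, the secreted factors Cfd and Retn, and Cd36, Aqp7, Adrb3, Gpd1 and Pck1, and their promoters had a GC content of 36.1% (Cd36) to 59.4%.

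The genes of other cell types gave shares of 4% to 13.6%, with wide intervals. Of 18 CpG-poor stromal genes 2 had a peak, or 11.1% (1.38% to 34.7%). These were Cd34, a surface protein of adipose progenitors, with a −log10 p of 12.7 and its midpoint 32 bp downstream, and Tagln, a smooth muscle actin-binding protein, with 4.95. Of 22 CpG-poor muscle genes 3 had a peak, or 13.6% (2.91% to 34.9%). These were Tnni3 (cardiac troponin I) with 6.21, Actc1 (cardiac actin) with 6.06 and Myod1, the myogenic transcription factor, with 4.86. The peak of Myod1 lay wholly in coding sequence 502 bp downstream, with a CpG ratio of 0.857. Of 24 liver genes 1 had a peak, or 4.17% (0.105% to 21.1%), at Apob with 6.21, and of 25 immune genes 1 had a peak, or 4% (0.101% to 20.4%), at Tyrobp with 4.48. The intervals of the 5 lists overlap each other widely, and at these numbers no difference between fat cell genes and genes of other cell types could be detected. Together 10 of 110 CpG-poor genes of the lists had a peak, or 9.09% (4.45% to 16.1%). The peaks of Tagln, Myod1 and Tyrobp were under 5, so the p cut-off stated for peak calling would have left them out.

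Gene families differed more. Keratins and keratin-associated proteins, the filament and matrix proteins of skin and hair, had a peak at 26 of 104 CpG-poor genes, or 25% (17.0% to 34.4%), an interval above the 4.90% of all CpG-poor genes. For the Krtap genes the share was 29.8% (18.4% to 43.4%) of 57 and for the Krt genes 19.1% (9.15% to 33.3%) of 47. All 26 of these peaks had their midpoint in coding sequence. Solute carriers had a peak at 12 of 127 CpG-poor genes, or 9.45% (4.98% to 15.9%), with 4 of the 10 highest peaks among them. Potassium channels had 5 of 33, or 15.2% (5.11% to 31.9%). The intervals of both begin just above 4.90%. The median promoter GC content was 50.8% for solute carriers and 53.7% for potassium channels. All CpG-poor genes of 50 to 55% GC had a peak in 7.09% of cases, which lies inside both intervals. The keratin group had a median of 52.0% GC, and its interval lies above 7.09%. That interval counts each gene as independent, although Krtap genes lie in tandem and resemble each other, so it is too narrow to that extent. Olfactory and vomeronasal receptors had a peak at 9 of 1451 CpG-poor genes, or 0.620% (0.284% to 1.17%), and their promoters had a median GC content of 37.4%. No peak was found at the CpG-poor genes of the serpins (0 of 57, which allows up to 6.27%), the defensins (0 of 64, up to 5.6%), the chemokines (0 of 31, up to 11.2%), the protocadherins (0 of 27, up to 12.8%) and the myosins (0 of 18, up to 18.5%). The other families had intervals that contain 4.90%, with 4 of 87 for cytochrome P450, 4 of 61 for interleukins and their receptors, 2 of 25 for collagens, 4 of 118 for Zfp genes, 2 of 33 for orphan G protein-coupled receptors, 5 of 61 for Tmem genes and 0 of 2 for clustered histone genes.

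The Krtap peaks gathered on chromosome 11. Between the first and the last Krtap TSS there, chr11:99550865-99993994, 22 of 41 CpG-poor genes had a peak, or 53.7% (37.4% to 69.3%), against 5.87% (4.02% to 8.23%) of the 528 other CpG-poor genes of the chromosome. Chromosome 11 had the highest share of the autosomes, 9.31% (7.06% to 12.0%), and 6.90% (4.88% to 9.42%) without Krt and Krtap genes. The other autosomes ran from 2.08% on chromosome 14 to 6.49% on chromosome 18. The peaks of the interval had −log10 p values of 4.12 to 16.8 with a median of 7.20, a median GC content of 61.3% and a median CpG ratio of 0.160, so they held few CpGs for their GC content. They held 1 to 18 CpGs, with a median of 1.40 per 100 bp against 4.11 over all 593 peaks. Within the Krtap family a peak was found at 0 of 16 genes with a promoter GC content under 45%, 3 of 14 at 45 to 50% and 12 of 21 at 50 to 55%, the last being 57.1% (34.0% to 78.2%), and at 2 of the 6 genes with 55% or more. Krtap genes lie in tandem and resemble each other, and 6 of the 17 Krtap peaks matched 1 place in the genome only.

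Copies and repeats were more frequent under these peaks than at CpG-rich promoters. At least 2 places in the genome (a match of at least 100 bp at 90% identity or more) were found for 69 of 593 peaks, or 11.6% (9.17% to 14.5%), against 4.65% (3.99% to 5.38%). At least 5 places were found for 5.06% (3.44% to 7.14%) against 1.30% (0.958% to 1.72%). Repeat-masked bases made up over 50% of a peak in 19 cases, or 3.20% (1.94% to 4.96%), against 0.378% (0.207% to 0.634%). Another TET2 peak lay within 10 kb of 20.1% (16.9% to 23.5%) against 11.6% (10.6% to 12.7%). How the reads of copied stretches were assigned is not given in the sources used here, and the part of this in the peaks with more than 1 place was not tested. With peaks over 50% repeat-masked left out, 574 peaks remained.

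SP1 letters were more frequent at the midpoints than beside them, and C/EBP and TATA letters less frequent. Letters were searched on both strands in the 100 bp on each side of the midpoint. The SP1 letters GGGCGG were found in 32.5% of the peaks (28.8% to 36.5%), in 5.65% of windows 1 kb to either side, in 5.54% of windows at promoters with no peak and in 51.4% at CpG-rich peaks. The C/EBP letters TTGCNNAA were found in 21 peaks, or 3.54% (2.21% to 5.36%), against 7.17% (5.76% to 8.79%) at 1 kb to either side, 8.17% (7.56% to 8.81%) at promoters with no peak and 2.16% (1.72% to 2.68%) at CpG-rich peaks. C/EBP proteins drive fat cell differentiation, and include C/EBPα. Lep was among the 21 and had the second highest peak of these, after Tdrd9 with a −log10 p of 12.7, a gene of germ cells that was named after its value had been seen. The TATA letters TATAAA were found in 2.19% (1.17% to 3.72%) of midpoint windows against 12.4% (10.6% to 14.4%) at 1 kb to either side.

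The differences in SP1 and C/EBP letters from promoters with no peak were smaller among windows of like GC content. In windows of 60 to 65% GC, SP1 letters were found in 25.4% (20.1% to 31.3%) of 248 peaks and 26.5% (22.0% to 31.4%) of 351 windows at promoters with no peak, and C/EBP letters in 3.63% (1.67% to 6.78%) and 4.27% (2.41% to 6.95%). The letters CCNCACCC, bound by KLF factors, were found in 11.3% (7.63% to 15.9%) against 19.4% (15.4% to 23.9%), the largest gap in percentage points among the 6 motifs read this way. Over windows of any GC content the direction was the other way, with 10.5% (8.11% to 13.2%) against 7.19% (6.61% to 7.79%). For E-box letters CACGTG the gap stayed at 60 to 65% GC, with 7.26% (4.36% to 11.2%) against 3.99% (2.20% to 6.60%), intervals that overlap. Over windows of any GC content it was 5.23% against 2.03%. C/EBP letters were found in 5.06% (3.39% to 7.23%) of CpG-rich peak windows of 60 to 65% GC, above the share at CpG-poor peaks, with intervals that overlap. At the TSS itself, TATAAA lay 41 to 15 bp upstream on the strand of the gene in 4.79% (3.21% to 6.86%) of the 584 promoters with a peak and in 4.77% (4.30% to 5.28%) of those without, against 0.939% (0.651% to 1.31%) of CpG-rich promoters with a peak. A TATA box at its usual place was thus as frequent at CpG-poor promoters with a peak as at those without, within these intervals. Of the other motifs, E-box letters CACGTG were found in 5.23% (3.58% to 7.34%) of the midpoint windows against 2.45% at 1 kb, ETS letters CCGGAAG in 3.20% (1.94% to 4.96%) against 0.759%, and CCAAT in 15.9% (13% to 19%) against 25.5%. AP-1 letters TGANTCA were found in 1.69% (0.812% to 3.08%) against 4.47%, and CRE letters TGACGTCA in 0.675% (0.184% to 1.72%) against 0.253%. The motifs of PPAR, the glucocorticoid receptor, NRF1, CTCF, NFI and YY1 were each found in at most 2.87% of the midpoint windows. CTCF had this share (1.68% to 4.55%), against 0.623% (0.458% to 0.828%) at promoters with no peak. NRF1 had 1.35% (0.584% to 2.64%) against 0.106% (0.0458% to 0.209%). For both, the intervals overlap those at 1 kb to either side. For the rest of these motifs the intervals overlap those at promoters with no peak. Neither these motifs nor the ETS, AP-1 and CRE letters were read within bands of GC content.

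The limit of 0.5 fell within a continuous range of promoters. Just inside it were Col18a1, a basement membrane collagen, with a promoter ratio of 0.4995 and a −log10 p of 7.94, Ddit4l with 0.4995 and 5.13, and Rnf144b with 0.4999 and 8.51. Just outside were Gal, the neuropeptide galanin, with 0.5000 and 5.54, Tgm2, a transglutaminase, with 0.5002 and 5.91, and Pafah1b1 with 0.5005 and 11.2. The peaks of Col18a1 and Gal had ratios of 0.641 and 0.786 themselves.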

How the data were processed

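The authors trimmed the reads with NGS QC Toolkit, aligned them with bowtie1, and called peaks with MACS2 (version 2.1.0 in the submitters' processing notes) on the single TET2 library, using ChIPseeker for annotation. The deposited list gives each peak's interval and its −log10 p, which was used only to describe and rank peaks. In the rows of the published peak table used here its values equal the first log column, in MACS2's column order. They go below 5, the least that the stated p cut-off would give, so the setting behind the list is not certain. The methods name GRCm39, whereas the processing notes name mm10. Coordinates were read as GRCm38 and none were converted. The Input library was not analysed on its own.

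Peaks were placed by midpoint on protein-coding transcripts of GENCODE M21, and base composition and soft-masked bases came from the GRCm38 genome. Copies were sought with blastn 2.17.0 (at least 100 bp, 90% identity). Genes were merged over all their coding TSSs. A gene was kept if at least 1 of these had no coding TSS of another gene on the opposite strand within 1 kb. Scripts ran in Python 3.11.15 with SciPy 1.17.1, and placement and motif counts were tested on simulated data. With 1 library no p-value was computed. Named genes were the 10 highest peaks, the 10 highest with 1 place and under 50% masked, list genes with a peak, and the 3 peaks on each side of the CpG limit. Members, gene lists and motifs were chosen with earlier results of these data known, as were the Krtap interval, 1-exon genes and GC bands.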

Additional observations from a re-analysis of the deposited data

How the results depend on the processing

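Of 76 values computed under 12 alternatives, 52 stayed inside the 95% interval of the value reported or, for the number of peaks, within 1.5 times of it. The other 24 moved. With peaks of a −log10 p of at least 8, 187 peaks remained with a median height of 9.27, the share of CpG-poor genes with a peak was 1.69% and its ratio to the CpG-rich share 0.160, against 0.142 as reported. Of the 21 CpG-poor adipocyte genes, 1 then had a peak (4.76%) rather than 3 (14.3%), inside the wide interval of the latter. With a −log10 p of at least 5, 532 peaks remained with a median height of 7.21, and the share was 4.34%. A CpG limit of 0.4 gave 345 peaks, a share of 3.11%, a ratio of 0.0946, 8.12% of peaks at a CpG ratio of at least 0.6 and 16.5% with 2 or more places. A limit of 0.6 gave 993 peaks, 7.83%, 0.217, 40.2% and 8.86%. Midpoints within 500 bp gave 3.79%, 0.123 and 13.7% of peaks at 0.6 or more. TSSs of all transcripts of coding genes gave 68.2% of midpoints downstream and 13.2% at 0.6 or more. At a peak ratio of at least 0.75 the CpG-dense share was 6.24%. C/EBP letters were found in 2.02% within 50 bp and 11.6% within 250 bp of the midpoint. These shifts follow from which peaks or bases each setting admits. The GC bands for motifs and the limit of 5 were added choices, made after the values were known. No paired analysis was possible because the series has a single TET2 library, so none could be left out either. The depth behind single peaks was not analysed.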
